A study of Mus musculus with 36 samples.

Results

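The olfactory receptor genes described here were the autosomal genes whose symbol starts with Olfr in the mm9 annotation, each taken from 1 kb before its start to its end. Of 1243 such genes, 1137 held at least 5 of the measured CpGs at a mean depth of at least 5 reads per CpG in every animal, and these 1137 were among 32072 autosomal genes that passed the same minimum. Of the 106 genes left out, 98 had fewer than 5 CpGs and 8 were too shallow in at least 1 animal. The genes that passed comprised 1026 protein-coding genes, 106 pseudogenes and 5 processed transcripts. The 68 genes with exactly 5 CpGs had a median methylation of 74.6% and the 43 left out with exactly 4 CpGs had one of 70.3%.

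Liver DNA of 24 mice aged 20 weeks was studied by whole-genome bisulfite sequencing, in which unmethylated cytosines are converted and methylated cytosines are not. The parents, 3 sires and 3 dams per strain, were inbred C57BL/6N mice (B6) or C3H/HeN mice (C3), and the offspring were 3 males and 3 females each of the reciprocal crosses B6C3F1 and C3B6F1. The parents had been mated from week 10 and the dams had nursed litters until week 16, whereas the F1 females were virgin, so that in a comparison of sires with dams sex and breeding history cannot be told apart. Liver is a mixture of cells, and a level is an average over them.

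Olfactory receptors are G protein-coupled receptors with which sensory neurons of the nose detect odorants. Most of the genes stand in tandem clusters, and each has an intronless coding sequence behind short 5′ exons. A sensory neuron uses a single one of them from 1 parental copy, chosen while the clusters lie in heterochromatin, and in liver nearly all of them are silent. Few are reported to act outside the nose.

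The sequences that carry the results are given first, from the mm9 genome on the strand of the gene, with CpGs in capitals. The stretch of the Olfr94 exon at chr17:37334077-37334376 (minus strand) is shown because it was the CpG-richest of any of these genes and nearly unmethylated. The Olfr1395 exon at chr11:48962405-48962554 (plus strand) belongs to the gene with the highest level. The Olfr90 exon at chr17:37222555-37222854 (minus strand), the Olfr212 intron at chr6:116458354-116458553 (plus strand) and the bases around 1 CpG before Olfr1316 at chr2:111971279-111971339 (minus strand) are stretches where B6 and C3 differed in called genes.
Olfr94: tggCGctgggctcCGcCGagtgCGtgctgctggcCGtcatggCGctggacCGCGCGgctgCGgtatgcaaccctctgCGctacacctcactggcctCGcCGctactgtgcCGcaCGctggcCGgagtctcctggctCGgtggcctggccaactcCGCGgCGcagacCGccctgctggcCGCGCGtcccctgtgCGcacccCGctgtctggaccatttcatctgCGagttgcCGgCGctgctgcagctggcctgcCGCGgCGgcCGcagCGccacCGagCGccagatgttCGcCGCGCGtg
Olfr1395: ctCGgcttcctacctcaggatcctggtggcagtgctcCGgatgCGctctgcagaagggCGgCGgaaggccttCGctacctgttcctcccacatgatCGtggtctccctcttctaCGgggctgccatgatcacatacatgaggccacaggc
Olfr90: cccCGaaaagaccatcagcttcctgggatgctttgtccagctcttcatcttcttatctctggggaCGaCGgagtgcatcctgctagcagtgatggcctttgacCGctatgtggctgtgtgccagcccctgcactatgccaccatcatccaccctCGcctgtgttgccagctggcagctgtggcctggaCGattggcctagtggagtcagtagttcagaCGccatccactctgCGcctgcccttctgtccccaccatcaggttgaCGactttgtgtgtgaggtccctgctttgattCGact
Olfr212: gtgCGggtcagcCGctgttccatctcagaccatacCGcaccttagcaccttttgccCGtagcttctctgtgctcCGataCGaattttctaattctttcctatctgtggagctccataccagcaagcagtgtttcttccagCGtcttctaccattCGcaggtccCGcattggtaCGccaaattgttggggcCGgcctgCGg
Olfr1316: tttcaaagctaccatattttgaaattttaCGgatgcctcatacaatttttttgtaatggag

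The olfactory receptor genes were highly methylated in liver. Weighted methylation, the share of reads over all CpGs of a gene that were methylated, had a median of 77.2% as the mean of 24 animals, with quartiles of 71.1% and 82.2%. Of the 1137 genes, 503 lay between 70% and 80% and 376 between 80% and 90%, 20 lay above 90%, and 6 lay below 50%. Over all genes tested the median was 75.03% and the quartiles were wider, at 61.7% and 83.0%. The other receptor families that stand in clusters had medians of 71.7% in 157 Vmn1r and 71.3% in 149 Vmn2r genes, which encode vomeronasal receptors, of 86.2% in 16 Taar genes for trace amine receptors and of 75.8% in 26 Tas2r genes for bitter taste receptors. Pseudogenes and protein-coding olfactory receptor genes were alike in level, with medians of 77.0% and 77.3%.

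The regions were poor in CpGs. They held a median of 4.76 CpGs per kb and a GC content of 38.8%, against 11.7 CpGs per kb and 45.3% over all genes tested, and 46.3% of them rested on 5 to 10 CpGs. A median depth of 32.1 reads per CpG and animal gave a median SD over 24 animals of 2.67 percentage points, of which counting error alone would give 2.24. Within the olfactory receptor genes the level went up with CpG density, from a median of 72.8% in the 285 genes with the fewest CpGs per kb over 74.6% and 77.4% to 82.0% in the 284 with the most. Exons were denser and more methylated than the rest, with 8.39 CpGs per kb at 79.0% (range over animals 77.8% to 80.5%) over 9852 CpGs. The 1 kb before the start had 3.58 CpGs per kb at 73.9% (72.3% to 75.9%) over 4068 CpGs, and introns had 4.49 CpGs per kb at 74.97% (73.9% to 76.4%).

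The annotated start of the olfactory receptor genes carried no dip in methylation. Pooled over the 1026 protein-coding genes, the level was 74.3% in the 250 bp before the start, 75.9% in the 250 bp after it and 81.0% between 250 and 500 bp into the gene. The 19736 other protein-coding genes tested fell to 12.6% in the 250 bp before the start, where they held 48.6 CpGs per kb against 3.63 in the olfactory receptor genes. Of the 1026 genes, 834 are annotated with a single exon, so that promoters can lie upstream of the annotated start. The level to 5 kb before the start stayed between 73.2% and 76.2%.

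**Figure D1:**
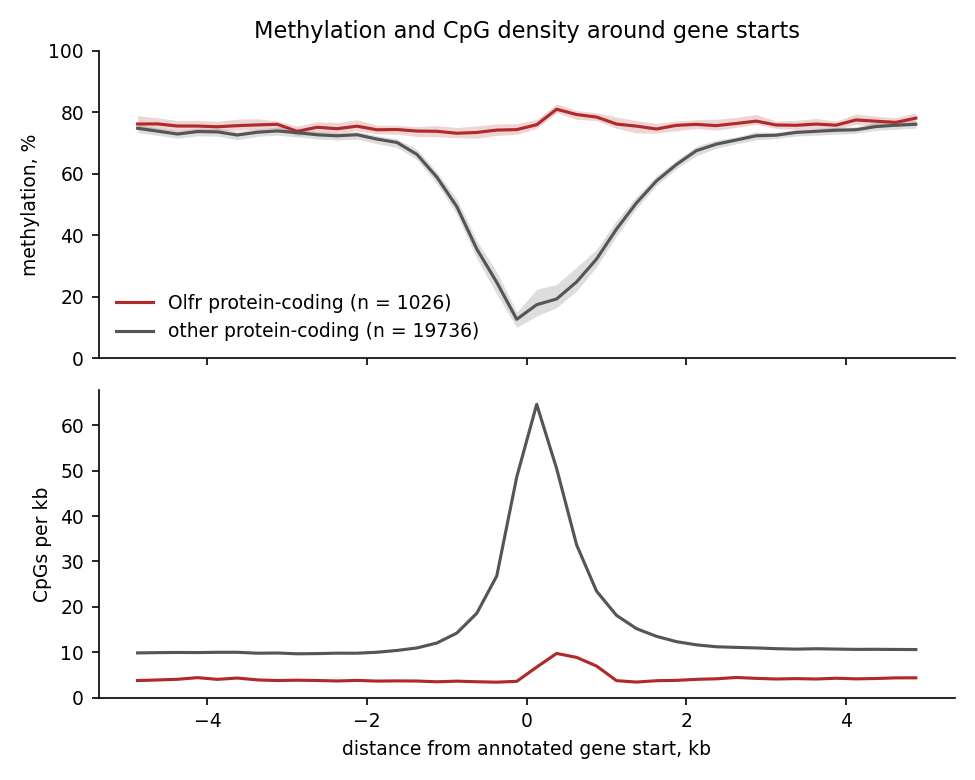
Methylation in percent (upper panel) and CpGs per kb (lower panel) in steps of 250 bp against the distance from the annotated gene start in kb, for 1026 protein-coding Olfr genes and 19736 other protein-coding genes, as the mean of 24 animals with the range over animals shaded. The Olfr line stays between 73.2% and 81.0%, and the other genes fall to 12.6% before the start.

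Only a handful of olfactory receptor genes were low. Olfr94 had the lowest level, 18.9% over 96 CpGs, with a range of 14.9% to 22.4% in 6 B6 parents, 15.5% to 22.5% in 6 C3 parents and 15.5% to 24.1% in 12 F1 animals. The ranges of the groups overlapped throughout. With 41.7 CpGs per kb it was the densest of the 1137 regions, and the exon stretch printed above had 40 CpGs at 1.15%, between 0.572% and 2.01% in single animals. The 9 CpGs in the 1 kb before its start stood at 80.6%. Olfr95, its neighbour on chromosome 17, had 21.7% over 45 CpGs, at 19.02% ± 2.01 (SD, n = 6) in B6 and 24.4% ± 2.74 in C3, a difference that passed the test (limma, Benjamini-Hochberg adjusted p = 0.0036). Olfr1150-ps1 on chromosome 2 stood at 21.5% with no density of this kind, on 8 CpGs at 4.13 per kb. It was higher in B6, at 23.98% ± 2.47 against 17.7% ± 1.94 (n = 6 each, limma adjusted p = 0.016).

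Olfr845, at 48.1% over 8 CpGs, and Olfr9, at 49.5% over 18 CpGs, followed in the order from the lowest. Olfr845 had 45.5% ± 3.599 in B6 and 50.4% ± 2.35 in C3, and Olfr9 had 49.4% ± 3.27 and 50.4% ± 3.59 (SD, n = 6 each), so that the ranges of both genes overlapped in either strain. At the other end Olfr1395 reached 95.7% over 27 CpGs and its neighbour Olfr1394 94.4% over 30 CpGs, both on chromosome 11. The exon of Olfr1395 printed above had 8 CpGs at 96.1%, with 93.6% in the lowest animal and 98.6% in the highest. Olfr1014 and Olfr1397-ps1 (both 93.4%) and Olfr539 (93.3%) came next. In windows of 1000 nt with at least 5 CpGs, 34 of 1825 windows over 960 of these genes lay below 50% and 3 below 10%. Of these 3 windows, 1 was that of the Olfr94 exon, at 9.78%, and 2 lay in the 156-kb gene Olfr56, where the interferon-induced gene Ifi47 is annotated in the same stretch, and so cannot be assigned to Olfr56 itself.

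The genes fell into 50 clusters on 17 chromosomes, a cluster being a run of genes whose starts were at most 1 Mb apart. Of the 50, 11 were single genes. The 21 clusters with at least 10 genes that passed held 1037 of the 1137. The largest, at chr2:85171054-90241831, had 238 genes that passed, a median of 78.0% and a range of 21.5% to 93.4%. The next, at chr7:109625287-112517869, had 138 and a median of 81.0%. This cluster surrounds the beta-globin genes, of which Hbb-b2 to Hbb-y lie at chr7:110961038-111001754. Medians of the 21 clusters ran from 67.5% in the 34 genes at chr9:18559100-20140538 to 84.2% in the 19 genes at chr7:147347838-147891166. The SD of these 21 medians was 4.89 points, and the genes of a cluster had a median SD of 7.01 points.

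**Figure D2:**
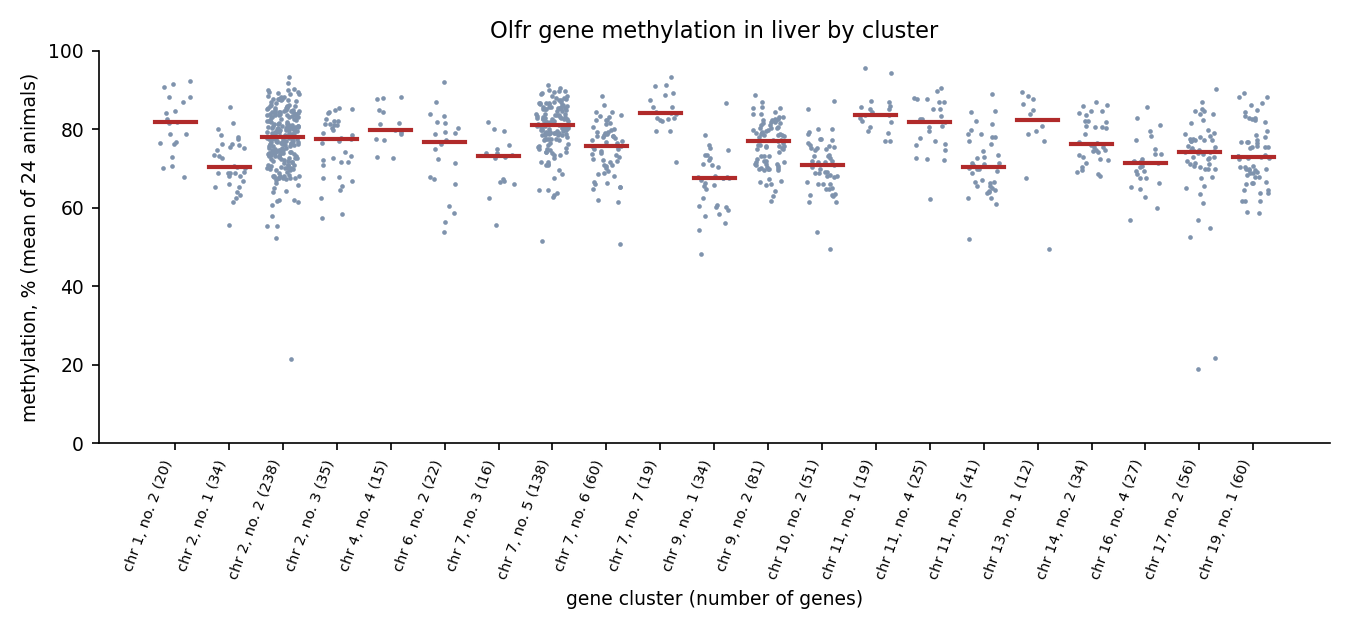
Methylation in percent of each Olfr gene (points, mean of 24 animals) in the 21 clusters with at least 10 genes that passed, numbered along each chromosome with the number of genes in parentheses, and the cluster median (red bar). Medians run from 67.5% to 84.2%, and the lowest points belong to Olfr94, Olfr1150-ps1 and Olfr95.

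Position within a cluster made no uniform difference. In 16 clusters with at least 20 genes, the genes within 100 kb of an edge had a higher median than those inside in 8 clusters and a lower one in 8. At cluster edges CpG density fell and the median level rose by less than the levels varied between steps outside. In 50-kb steps over 42 edges, density went from 6.99 CpGs per kb just outside to 5.11 just inside, while the median level went from 74.8% to 77.4%. Medians of the steps to 500 kb ran from 72.1% to 77.6% outside and from 73.8% to 77.4% inside. In bins of 100 kb, the 393 bins in clusters had a median of 75.8% and 4.83 CpGs per kb, against 77.5% and 7.19 over 23953 autosomal bins.

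Variants between the strains were frequent in some clusters and nearly missing from others. The regions of the 1137 genes held 4683 SNVs of the deposited list, or 1.50 per kb against 1.14 per kb over the autosomes. Of these regions 515 (45.3%) held none, as did 46.1% of all genes tested. These shares are not on a par, since the median region was 1960 bp long and that of all genes 8269 bp. In 100-kb bins, which are equal in length, the median was 0.97 SNVs per kb in clusters and 0.27 over all autosomal bins. Among the 21 larger clusters, 10 had a median of 0 SNVs per kb. The cluster at chr9:18559100-20140538 had no SNV over its whole span of 1581 kb, while that at chr1:174886899-176379733 had 4.36 per kb and a median of 5.45 per kb over its 20 genes. The mean depth of C3 over that of B6 had a median of 1.05 over the 1137 genes, lay below 0.5 in 6 and above 2 in 2. All reads were aligned to mm9, a C57BL/6 reference genome and not that of the C57BL/6N animals themselves.

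The first comparison asked whether the parental strains differ. Between 6 B6 and 6 C3 parents, 8 of the 1137 genes were called, which took a limma adjusted p below 0.05 together with 10 percentage points or more. Of all genes tested 1.18% were called. Olfr212 and Olfr1316 were higher in B6, and Olfr1295, Olfr759-ps1, Olfr90, Olfr1275, Olfr1245 and Olfr799 were higher in C3. These are receptor genes with no assigned ligand here, apart from Olfr759-ps1, a pseudogene. Without the minimum of 10 points, 180 genes (15.8%) had an adjusted p below 0.05, where all genes tested had 21.7%. Of these, 139 were higher in C3, a direction in which 17.6% of all genes passed, and 41 were higher in B6. The median size of the 180 differences was 4.69 points, and 77 reached 5 points, as did 5.41% of all genes.

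Olfr212 at chr6:116456534-116467983 had the most CpGs of the 8 genes. These 68 CpGs stood at 86.0% in the lowest, 86.7% in the median and 87.3% in the highest of 6 B6 parents, and at 69.5%, 72.3% and 74.6% in the C3 parents. The 12 F1 animals lay at 78.0% to 83.5%, between both ranges without touching either. The means were 86.8% ± 0.452 and 72.1% ± 1.96 (SD, n = 6 each), with a log2 ratio difference of 1.34 ± 0.07 (SE) and a limma adjusted p of 4.2e-10. In the intron stretch printed above 12 CpGs had 92.9% ± 1.09 in B6, 67.6% ± 5.70 in C3 and 83.2% ± 3.32 in 12 F1 animals. The 1000-nt window at chr6:116458001-116459000, with 20 CpGs, had 91.7% ± 1.36 and 67.5% ± 5.12.

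Olfr90 at chr17:37222136-37223181 changed direction along its length. Over its 20 CpGs the B6 parents lay at 44.8%, 49.6% and 55.0% (lowest, median, highest) and the C3 parents at 57.8%, 60.9% and 66.3%, without overlap, and the means were 49.3% ± 3.44 and 61.6% ± 3.66 (n = 6 each, limma adjusted p = 4.0e-05). In the exon stretch printed above, 10 CpGs had 17.6% ± 1.99 in B6 (14.9% to 19.3%), 58.6% ± 7.23 in C3 (49.6% to 66.7%) and 36.5% ± 4.75 in F1 (29.1% to 43.1%). The stretch holds 6 SNVs. The CpG at 266 bp before the start had the opposite order, with 81.6% of 256 reads methylated in B6 and 30.7% of 114 in C3, and the CpG at 243 bp before the start had 72.8% and 45.3%. Exon CpGs outside the printed stretch were also higher in B6, at 869 bp (77.6% and 59.4%), 154 bp (58.7% and 40.6%) and 151 bp (76.3% and 63.9%) into the gene. Of the 20 CpGs, 11 had the direction of the whole region. The window at chr17:37222001-37223000, with 13 CpGs, had 35.6% ± 4.93 in B6, 63.6% ± 5.76 in C3 and 47.1% ± 4.69 in F1. This window and that of Olfr212 were the 2 of 1825 called at 20 points, against 0.355% of all windows. At 10 points 21 were, against 1.94%. Between sires and dams 0 of the 1825 windows were called by limma (0.0627% of all windows), and 16 had an adjusted p below 0.05, against 1.32%.

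**Figure D3:**
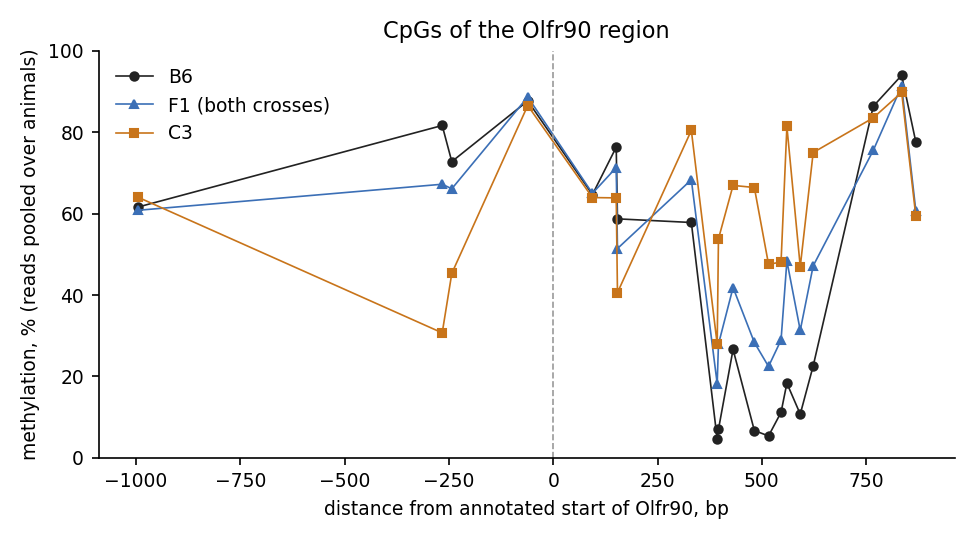
Methylation in percent of the 20 CpGs of the Olfr90 region against the distance from its annotated start in bp, with reads pooled over 6 B6 parents, 6 C3 parents and 12 F1 animals. B6 lies below C3 between 331 and 623 bp into the gene. It lies above C3 at 266 and 243 bp before the start and at 151, 154 and 869 bp into the gene. F1 lies between them at these CpGs.

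Olfr1295 at chr2:111404626-111405668 had the largest difference of any of the 8 genes. Its 7 CpGs stood at 59.0%, 62.7% and 68.6% in B6 parents and at 78.4%, 79.9% and 85.1% in C3 parents, with means of 63.0% ± 3.70 and 80.6% ± 2.58 (limma adjusted p = 2.4e-06). The groups did not overlap, and the 12 F1 animals ran from 64.9% to 77.2%. Depth differed at this gene, with 33.1 reads per CpG in B6 and 21.05 in C3. At the CpG 345 bp before the start, where B6 had 39.0% of 195 reads methylated, C3 had 9 reads in 6 animals, and at the CpG 202 bp before it B6 had 31.6% of 250 reads and C3 had 51 reads. These CpGs of low level thus had less weight in C3. With equal weight for each of the 7 CpGs, an alternative chosen after seeing the data, the levels were 65.2% in B6 and 73.0% in C3, a difference of -7.88 points. The other 7 called genes kept their direction with equal weights, and of these Olfr1245 was under 10 points, at -9.82.

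Olfr759-ps1 at chr17:37544706-37545426, a pseudogene, rested on 5 CpGs. They stood at 41.2%, 51.3% and 54.7% in B6 and at 63.1%, 64.5% and 68.6% in C3, and every one of the 5 was higher in C3. The means were 49.6% ± 5.68 and 65.0% ± 2.01 (limma adjusted p = 0.00019), and the mean over F1 animals was 56.7% ± 4.43 (n = 12).

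At the other 4 genes the difference fell under 10 points without the CpG where it was largest, an alternative chosen after seeing the data. It was then 1.59 points at Olfr1316, -4.82 at Olfr1245, -6.93 at Olfr799 and -8.84 at Olfr1275, and at Olfr90 it was -9.68. Olfr1316 at chr2:111970028-111970972 had 77.3% ± 3.32 in B6 and 63.4% ± 6.80 in C3 (limma adjusted p = 0.00083) on 6 CpGs at 13.5 reads per CpG. The CpG 337 bp before its start, at chr2:111971309, was methylated in 77.2% of 92 reads in B6, in 43.0% of 158 in F1 and in 0 of 73 in C3. Without it the means were 77.5% ± 3.11 and 76.0% ± 5.24. The nearest listed SNV lies 1665 bp away. It was the 1 CpG of 16877 in these regions, at least 30 reads deep in each strain, with at most 5% in one strain and at least 50% in the other. Over the autosomes 2.43 per 10000 CpGs were of this kind with C3 low and 0.203 per 10000 with B6 low. A CpG that is a TG in C3 would be read as unmethylated, and a CpG enters the deposited table when it is found on only 1 of the strands. Whether this is such a CpG was not tested.

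Olfr1245 at chr2:89414869-89415930 had 62.4% ± 2.23 in B6 and 73.1% ± 2.80 in C3 (limma adjusted p = 0.00014). The CpG 99 bp before its start, 2 bp from an SNV, had 20.7% of 241 reads in B6 and 60.2% of 196 in C3, and without this CpG the means were 70.2% ± 3.15 and 75.01% ± 2.51. Without C3 male 1 the whole region differed by -9.47 points and was not called. Olfr799 at chr10:129084186-129085121 had 69.6% ± 3.09 and 80.03% ± 1.88 (limma adjusted p = 3.2e-05) on 5 CpGs. It lost the call without B6 male 3 (-9.55 points), B6 female 3 (-9.99 points) or C3 male 2 (-9.97 points). Olfr1275 at chr2:111070975-111071994 was the 1 of the 8 whose groups overlapped, with 61.5% to 71.8% in B6 and 71.0% to 79.8% in C3, and it is named here after its values were seen. Its means were 64.9% ± 3.76 and 76.1% ± 3.02 (limma adjusted p = 9.1e-05). Just short of 10 points were Olfr143, at 57.8% and 67.7%, Olfr1077-ps1, at 70.3% and 79.5%, and Olfr118, at 72.6% and 81.8%, each higher in C3.

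**Figure D4:**
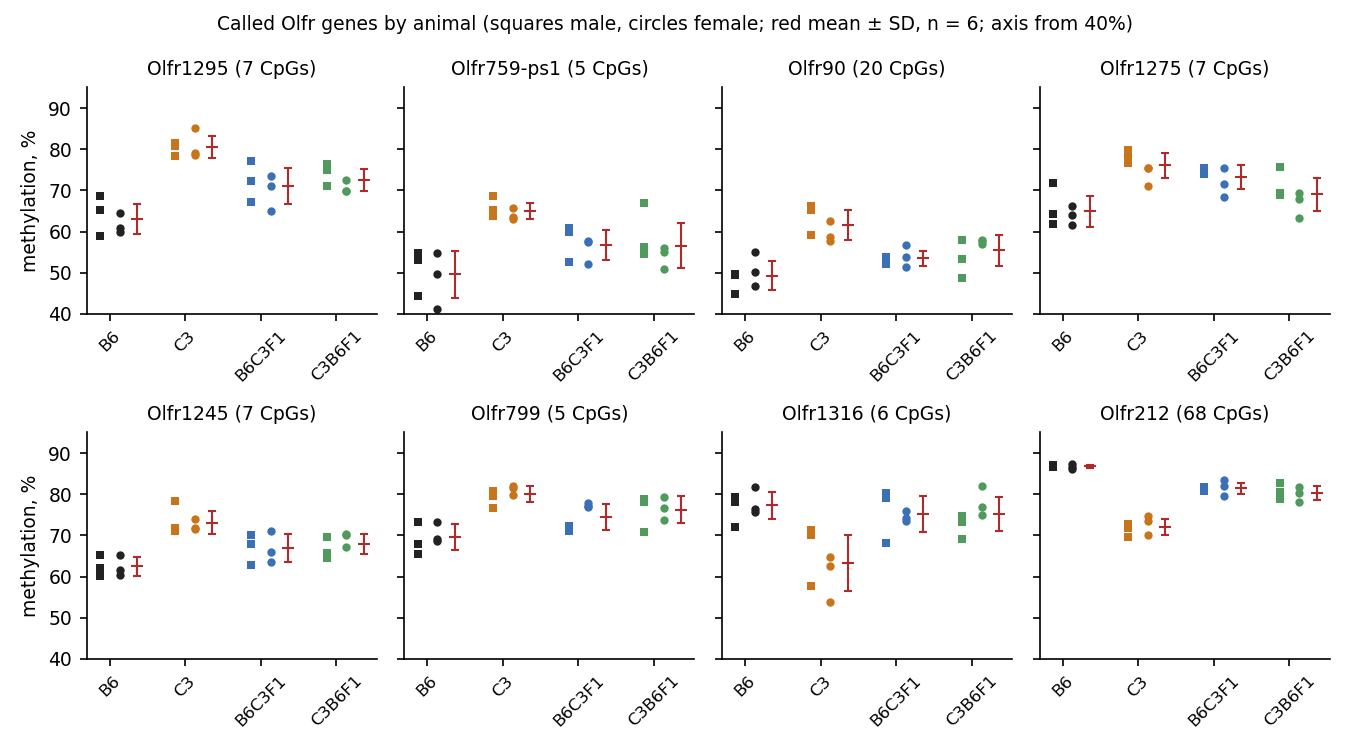
Methylation in percent of the 8 Olfr genes called between the parental strains, by animal (squares male, circles female) and strain or cross, with mean ± SD (red, n = 6) and an axis that starts at 40%. F1 means lie between those of the strains, and the B6 and C3 parents overlap at Olfr1275 alone.

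F1 animals lay between their parents. At 173 of the 180 genes past the adjusted p the F1 mean was between the parental means. On a scale from 0 at C3 to 1 at B6 its median position was 0.499, with quartiles of 0.363 and 0.644. These 180 genes were picked for a difference between the parents, and the same values over all genes were not computed. The crosses stood at 0.499 for B6C3F1 and 0.512 for C3B6F1. No gene was called against the midparent or between the reciprocal crosses, where 0.00312% of all genes were called in each case. By limma 77 and 96 of the 1137 had an unadjusted p below 0.05 (7.44% and 13.4% of all genes), and by a quasi-binomial fit 37 and 55 had (7.81% and 12.0%). An allele could not be read from the deposited counts, so the levels of the maternal and paternal copies were not analysed here.

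The size of the strain difference was greater where SNVs were denser. The median absolute difference was 1.43 points in the 515 genes with no SNV, 1.75 points in the 297 with fewer than 2 per kb and 2.16 points in the 325 with 2 or more. The share at an adjusted p below 0.05 went from 8.16% over 19.5% to 24.6%, below that of all genes at each density, which was 13.8%, 24.6% and 34.8%. Genes overall rested on medians of 60, 257 and 140 CpGs and the olfactory receptor genes on 11, 12 and 11. The median absolute difference over all genes was smaller, at 1.16, 1.21 and 1.74 points. The genes with the most SNVs did not pass the test. Olfr1109 with 14.4 SNVs per kb had 82.5% ± 4.26 in B6 and 82.4% ± 3.21 in C3, Olfr1024 with 13.6 per kb had 82.5% ± 2.71 and 83.2% ± 3.90, and Olfr1018 with 13.4 per kb had 78.3% ± 2.99 and 81.4% ± 3.35 (limma adjusted p = 0.92, 0.80 and 0.24). Depth moved with SNV density as well, with a median ratio of C3 to B6 depth of 1.07 where there was no SNV and 0.994 where there were 2 or more per kb, and its part in the difference was not tested.

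Sires had a higher median than dams over the olfactory receptor genes. The median over the 1137 genes was 76.9% in the lowest and 79.1% in the highest of 6 sires, and 75.5% and 76.8% in 6 dams, so that the groups did not overlap. By strain it was 77.6% ± 0.600 in B6 sires and 75.7% ± 0.155 in B6 dams, and 78.8% ± 0.403 in C3 sires and 76.6% ± 0.269 in C3 dams (SD, n = 3 each). The median difference of a gene was 1.60 points in B6 and 2.09 points in C3. Over all genes tested it was 1.13 points in B6 and -0.08 points in C3. Over both strains the median difference was 1.93 points in the olfactory receptor genes, and in other clustered families it was 1.81 in Vmn1r, 2.22 in Vmn2r, 2.54 in Tas2r, 1.73 in 49 Krtap genes for keratin-associated proteins and 0.49 in Taar, against 0.49 over all genes. F1 males and virgin F1 females were closer, with a median difference of 0.05 points in B6C3F1 and 0.58 points in C3B6F1.

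Of the 1137 genes, 0 were called between sires and dams at 10 points, where 0.178% of all genes were. By limma 343 had an unadjusted p below 0.05 and by the quasi-binomial fit 252, where 20.5% of all genes did in either fit. Without a minimum difference, 93 genes had an adjusted p below 0.05, or about the 8.07% of all genes tested, and 92 of the 93 were higher in sires, a direction in which 6.95% of all genes passed. In the quasi-binomial fit it was 52 genes, against 9.18% of all genes. The 93 fell to 58 without B6 male 2 and to 59 without B6 female 3, where all genes had 5.71% and 5.66%. All genes past the threshold were higher in sires in 86.1% of cases. At 5 points, 21 genes passed, against 0.995% of all genes. In 100-kb bins, 314 of the 393 bins in clusters were higher in sires at an adjusted p below 0.05, where 57.3% of all autosomal bins were. The median difference of a bin was 1.66 points in clusters and 1.05 points over all bins. At 5 points 0 of the 393 bins were called by limma (0.0584% of all bins).

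Among the 93 genes Olfr181 on chromosome 16 had the largest difference between sires and dams. It stood at 61.1%, 59.3% and 55.2% in B6 sires, 51.7%, 50.6% and 50.7% in B6 dams, 64.7%, 61.5% and 64.7% in C3 sires and 60.5%, 51.3% and 53.2% in C3 dams. Sires were higher in both strains, with 1 C3 dam inside their range. The means were 61.1% ± 3.58 and 53.0% ± 3.77 (n = 6 each, limma adjusted p = 0.0048). Olfr1085 on chromosome 2 had 65.6% ± 2.87 in sires and 58.7% ± 3.31 in dams (limma adjusted p = 0.011). Both genes were named after their values were seen, and both passed without any single animal. The 1 gene higher in dams was Olfr1357, at 80.1% ± 2.34 against 76.3% ± 2.69 in sires (limma adjusted p = 0.039), and it no longer passed when any 1 of the other 11 parents than C3 male 3 was left out, at -4.08 to -2.70 points.

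**Figure D5:**
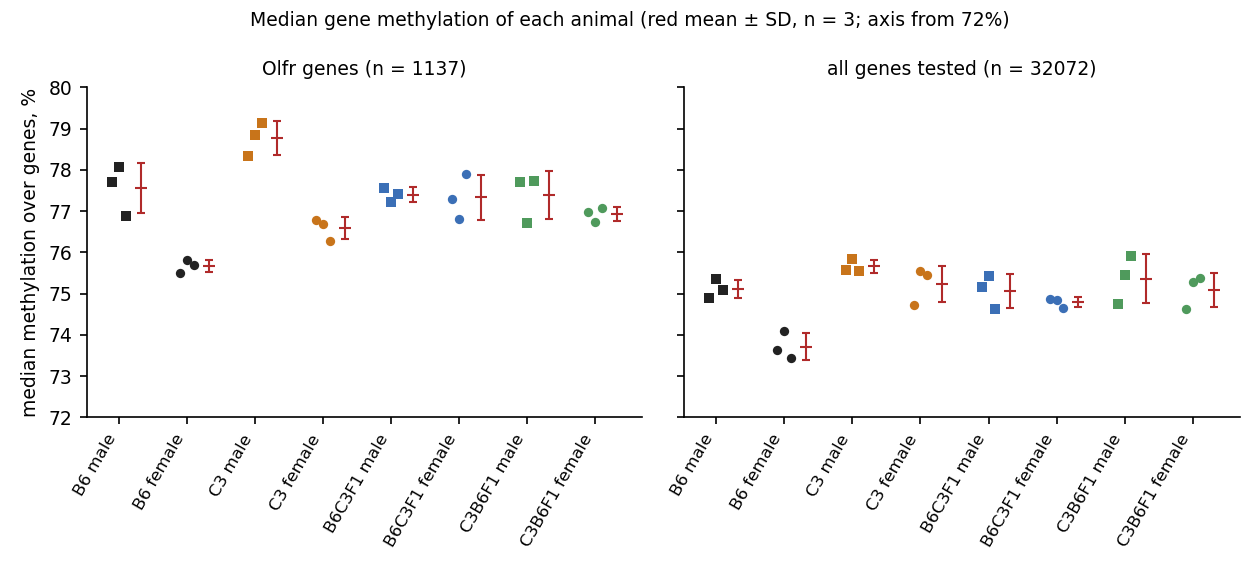
Median methylation in percent of each animal over the 1137 Olfr genes (left) and over all 32072 genes tested (right), by group, with mean ± SD (red, n = 3) and an axis from 72% to 80%. Over Olfr genes all sires lie above all dams, and F1 males and females overlap.

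The share of bins lower in dams than in virgin F1 females was similar in the clusters and over all autosomal bins. The median difference of dams from F1 females was -0.85 points over the olfactory receptor genes and -0.21 points over all genes. Dams were inbred and F1 females hybrid, so breeding history cannot be told apart here from genotype and generation. In 100-kb bins, 157 of the 393 bins in clusters had an adjusted p below 0.05 (limma), and 156 of these were lower in dams, where 37.5% of all autosomal bins were. The median difference of a bin was -0.78 points in clusters and -0.61 points over all bins. Among single genes, 1 had an adjusted p below 0.05, against 0.249% of all genes, and by the quasi-binomial fit 2 had, against 2.81%. Olfr331 on chromosome 11, which passed by limma, stood at 80.3%, 79.6% and 79.8% in B6 dams, 75.6%, 77.0% and 75.2% in C3 dams, 81.1%, 80.8% and 81.6% in B6C3F1 females and 80.9%, 78.9% and 80.6% in C3B6F1 females. The B6 dams were inside the range of the F1 females and the C3 dams below it. The difference was -2.74 points (limma adjusted p = 0.0089). When CpGs within 100 bp of an SNV were left out it was -1.50 points, with an adjusted p of 0.38. At 10 points 0 genes were called (0.0218% of all genes), while 137 had an unadjusted p below 0.05 by limma (12.0% of all genes) and 99 by the quasi-binomial fit (13.4%). The strain difference did not pass in its dependence on sex at any gene (0.00624% of all genes called), with 83 unadjusted p below 0.05 by limma and 45 by the quasi-binomial fit, where 14.0% of all genes had one in either fit.

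Receptors with a reported role outside the main course of smell, or with a well studied odorant or choice, were taken as a list. Of 13 genes 12 passed the minimum, between 74.1% and 89.8% with a median of 80.2%. Olfr691 (89.8%), which responds to carboxylic acids, Olfr1393 (86.9%), described in the kidney, and Olfr16 (84.7%), a receptor also found in sperm, were the highest, and Olfr2 (74.1%), the octanal receptor I7, the lowest. None was called. At an adjusted p below 0.05, 2 were higher in C3, where 17.6% of all genes were, and 2 higher in sires, where 6.95% were. Olfr78, a short-chain fatty acid receptor of the kidney and carotid body, had 76.2% ± 0.897 in B6 and 78.8% ± 1.49 in C3 (n = 6 each, limma adjusted p = 0.00066), and was higher in sires, at 78.3% ± 1.99 against 76.7% ± 1.24 in dams (limma adjusted p = 0.040). Olfr16 had 82.8% ± 1.98 in B6 and 86.2% ± 1.94 in C3 (limma adjusted p = 0.022). Olfr1507, the receptor also called MOR28, was higher in sires, at 75.3% ± 1.44 against 72.8% ± 1.11 (limma adjusted p = 0.045). Olfr544 (80.8%), reported as an azelaic acid receptor of liver and fat, had 81.2% ± 2.58 in B6 and 80.2% ± 1.87 in C3 and passed no test.

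The genes of the olfactory neuron that act beside the receptors were taken as a list. Of 14 genes for odor transduction and receptor trafficking, 1 was called between the strains, 4 including that one had an adjusted p below 0.05 with C3 higher and 0 with B6 higher, and 4 were higher in sires. Over all genes tested 1.18% were called, 17.6% had C3 higher and 6.95% had sires higher. The called gene was Omp, the olfactory marker protein, at chr7:105291870-105294012 inside Capn5. Its 76 CpGs stood at 50.3%, 60.4% and 70.3% in B6 parents and at 81.4%, 87.0% and 91.0% in C3 parents, with means of 60.6% ± 7.75 and 86.6% ± 3.43 (limma adjusted p = 1.0e-10). It was also higher in sires, at 78.3% ± 12.3 against 68.9% ± 16.5 in dams (limma adjusted p = 0.00021), a spread that holds the strain difference. The other 13 genes of this list ran from 36.3% in Gng13, a G protein gamma subunit, to 89.8% in Cnga4, a subunit of the olfactory ion channel. Of 12 regulators of receptor choice, 4 were higher in C3, where 17.6% of all genes were, and 0 higher in B6 at an adjusted p below 0.05, and 0 were called (limma). Ebf1 has a further short entry of the same symbol, and its protein-coding entry passed while that entry, a pseudogene, did not. Among the regulators Lhx2, a homeodomain factor needed for receptor genes, stood at 19.5%, and Emx2, another one, at 6.85%, and Lbr, a lamin receptor that is absent from olfactory neurons, at 70.1%.

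Depth and tissue were checked once for all animals. Autosomal CpGs had 19.4 to 32.8 reads per animal and a methylation of 75.05% to 77.5%. Within 500 bp of their starts 7 of 8 liver genes, among them Alb, Ttr and Apoa1, stood between 16.8% and 27.1%, while Serpina1a stood at 58.8%. The 5 start sites of blood and other liver cell markers ran from 59.7% in Stab2 to 87.9% in Clec4f. Start sites of Omp, Stoml3 and Cnga4 lay at 72.3% to 83.9% and that of Gnal at 9.53%. That of Omp, a gene called between the strains, ran from 40.7% to 91.7% in single animals. The library labelled C3B6F1 male 1 had a ratio of X to autosomal depth of 0.600, against 0.478 to 0.521 in the other males. Leaving it out changed no call named above. The genes called were called between parents, so this library bore on them only through the spread shared by all animals.

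Over larger intervals the strain differences in the clusters were mostly small. Of 393 bins of 100 kb, 216 had an adjusted p below 0.05 between the strains in either direction (limma), where 53.4% of all bins had. The median difference of B6 from C3 was -0.87 points in clusters and -0.85 points over all bins. With a minimum difference, 2 bins (0.509%) were called at 5 points, against 0.518% of all bins. At 3 points 25 bins (6.36%) were called, a larger share than the 2.61% of all bins. The bin at chr14:52100001-52200000, with 461 CpGs and the predicted genes Gm7247 and Gm5622, had 80.3% ± 0.563 in B6, 68.3% ± 0.861 in C3 and 75.9% ± 1.13 in F1 (n = 6, 6 and 12, limma adjusted p = 9.7e-17). The bin at chr7:111400001-111500000 had 85.6% ± 0.820 in B6 and 90.8% ± 1.04 in C3 (n = 6 each, limma adjusted p = 8.2e-14), and it holds Trim5, Trim12a and Trim34a, antiviral restriction genes that stand within the chromosome 7 cluster. Neither bin contains an olfactory receptor gene that passed the minimum.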

How the data were processed

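Liver DNA of 24 mice was read by whole-genome bisulfite sequencing, and 12 FOXA1 ChIP and input samples were not analysed here. The deposited counts of methylated and unmethylated reads per CpG and animal were made by the authors from reads processed, per the labels, with CASAVA 1.8.2 and aligned with Bismark 0.7.8 and Bowtie 0.12.8 to mm9 and phage lambda, with duplicates removed by the tool of Bismark, the biased ends of second reads clipped, doubly read bases of a pair counted once and the libraries of an animal joined. A CpG was kept where mm9, the local assemblies and at least 75% of bases of the reads of each strain had it, on at least 1 of the strands. The deposited list of SNVs gives the bases of mm9, B6 and C3. All 48 columns of counts were used. Bismark leaves out reads with several equal alignments, so that levels of genes with close copies are uncertain. Autosomal counts came to 365740739 to 619888157 per animal.

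Genes came from the GENCODE annotation of mm9, with coordinates counted from 1. Counts were summed over the CpGs of a gene from 1 kb upstream to its end, for genes with at least 5 CpGs and a mean depth of at least 5 in every animal. The log2 ratio of methylated to unmethylated counts, with a pseudocount of 1, was fitted in limma 3.58.1 (R 4.3.3) with means for 8 groups of 3 animals and trended, robust variances. Adjusted p-values are two-sided and Benjamini-Hochberg over all 32072 genes, for windows over all 1549937 windows of 1000 nt and for bins over all 23953 bins. Alternatives that changed the genes or windows tested were adjusted over those they tested. The 6 comparisons share animals and are not independent. A gene was called at an adjusted p below 0.05 and 10 points, a 1000-nt window (at least 5 CpGs, 30 reads in every animal) at 20 points and a 100-kb bin (at least 50 CpGs) at 5 points. The fit was tested on simulated counts for all genes together, without the minimum of 10 points. Olfactory receptor genes were not scored apart, and the outcome is not given here. Tables were made in Python 3.11.15 with numpy 2.4.6 and pandas 2.3.3.

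Named are the 6 called genes per direction with the largest difference and no overlap of groups, the 5 highest and 5 lowest levels, the 3 highest SNV densities, and lists of receptors with a known role, transduction genes and regulators. Members and lists were chosen with earlier results of these data known. Alternatives are given beside the results or in the closing part. The 1 kb upstream alone, the counts without a minimum difference, the CpG of the largest difference left out, a block of replicate number within cross and equal weight for every CpG were added after seeing the data.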

Additional observations from a re-analysis of the deposited data

Results flagged for a closer look

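In groups of 6 animals, 6 of 164 groups held 1 animal set apart by more than the 95% limit of Dixon's test, where chance gives about 1 in 20. Olfr759-ps1 stood at 67.0% in C3B6F1 male 3 and between 50.8% and 56.3% in the other animals of its cross. B6C3F1 female 3 was the animal set apart at 3 genes, with Olfr1397-ps1 at 96.3% (others 92.3% to 93.6%), Olfr1394 at 93.2% (94.9% to 95.2%) and Olfr73 at 78.3% (81.8% to 83.2%). Olfr16 was 82.4% in C3 male 1 (86.0% to 87.6%). Olfr845 was 51.7% in B6C3F1 male 1 (47.1% to 48.5%).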

How the results depend on the processing

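The genes called between the strains and those named between sires and dams kept their direction in the alternatives run for them. The median difference of all 1137 genes, 0.09 points both for F1 against the midparent and between the crosses, was -0.02 without C3 male 1 and without B6C3F1 female 3, respectively, and -0.0021 between the crosses without C3B6F1 male 2. Of the genes called between B6 and C3, 8 in the fit reported, there were 77 at 5 points (5.41% of all genes) and 0 at 20 points (0.212%). With neither the minimum of 5 CpGs nor that of depth there were 15 (1238 tested, 1.68% of all genes). Of the genes left out of the fit reported, 98 had fewer than 5 CpGs and 8 were too shallow. With CpGs within 100 bp of SNVs left out there were 3 (972 tested, 1.17% of all genes), and 6 of the 8 genes then had too few CpGs to be tested. Without the 1 kb upstream there were 2 (926 tested, 1.07% of all genes), Olfr212 and Olfr90, and the other 6 again could not be tested. With the upstream alone there were 10 of 305 tested (3.28%, against 3.19% of all genes), 5 in each direction. There were 7 at a mean depth of 10 (0.887% of all genes) and 7 among protein-coding genes (0.775%), and 8 with a pseudocount of 5, without trend and in the quasi-binomial fit. Leaving out 1 animal gave 7 to 10. Between sires and dams, against 0, there were 21 at 5 points (0.995% of all genes), all higher in sires, and 1 with the 1 kb upstream alone (0.328% of 305 tested, against 0.285% of all genes), which was Olfr978, higher in dams at -15.3 points and named after its value was seen. Genes at an adjusted p below 0.05 between the strains, 180, became 134 in the quasi-binomial fit (23.0% of all genes), 112 of 972 with CpGs near SNVs left out (19.6%), 30 of 305 with the upstream alone (11.8%) and 145 to 186 without 1 animal (17.7% to 22.7%). Between sires and dams 93 became 52 in the quasi-binomial fit (9.18% of all genes), 2 with the upstream alone (0.631%) and 58 to 98 without 1 animal (5.66% to 8.12%). Called windows went from 2 to 21 at 10 points and to 3 of 1157 with 500 nt (0.494% of all such windows), and called bins from 2 to 25 at 3 points and 2 to 3 without 1 animal. The median level was 79.0% without the upstream, over the 926 genes that still passed, against 77.2% over all 1137. These sets differ, and the same genes were not compared. A gap of 500 kb gave 55 clusters in place of 50.

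The study took the animals as families of sire, dam, son and daughter, and the labels do not say that a number marks a family. Deviations of same-numbered animals correlated at -0.144 to 0.300 (84 pairs, median 0.0276) and of others at -0.224 to 0.142 (168 pairs). Within a cross 34 of 36 same-numbered pairs were above 0 and 8 above 0.1. Of the other-numbered pairs within a cross, 20 of 72 were above 0 and 0 above 0.1. Whether the numbers follow families or something else that same-numbered animals share was not tested. With a replicate block within cross, chosen after seeing the data, 8 genes were called between the strains, 197 and 96 had an adjusted p below 0.05 between strains and between sires and dams (25.8% and 8.81% of all genes), and Olfr1357 no longer passed between sires and dams. With the replicate block, 8 genes were called between the strains, 182 and 89 had an adjusted p below 0.05 between strains and between sires and dams (23.1% and 8.25% of all genes), and 0 were called in the other comparisons. The median gene had an SD of 2.67 points over 24 animals, of which counting error alone would give 2.24.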
